A study of Mus musculus with 12 samples.

Results

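The complement genes described here were 9 of the 56832 genes counted in the series: the C1q chains C1qa, C1qb and C1qc, the central component C3, factor B (Cfb), properdin (Cfp), the receptors of the C3a and C5a fragments (C3ar1 and C5ar1) and Vsig4, a receptor of C3b. They were found by symbol in the count table, whatever their values, and their levels are given as CPM, the counts scaled by each library's total. RNA had been sequenced from bone marrow cells of mice sorted for CD45 and F4/80 and against Ly6g and Ly6c. The leukemic groups, with 3 libraries from females and 3 from males, came at day 11 from animals with advanced disease grown from transplanted cells of the bcCML leukemia model. The non-leukemic groups, again with 3 libraries from females and 3 from males, came from healthy mice. Strain, age and whether the healthy mice received any transplant or conditioning are not given in the sources used here, and the labels do not say whether animals were pooled or whether replicates were separate animals. Every p therefore measures the spread between libraries.

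Complement is a cascade of plasma proteins that tags targets for removal. C1q binds antibody or apoptotic cells and starts the classical pathway, while factor B and properdin build and stabilise the convertase of the alternative pathway, and both routes cleave C3 into C3b, which coats the target, and C3a, which signals to leukocytes. The liver makes most circulating complement, but tissue macrophages are the main source of C1q and also make C3, factor B and properdin.

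The libraries held between 16911827 and 30014855 counts, so a count of 0 allowed up to 3 counts, or 0.1 to 0.177 CPM. For the 7 genes other than Cfb and Vsig4 the lowest count in a library was 94. Their Wilson 95% interval reached at most 20.3% of the value to a side, averaged over its lower and upper side. Fewer genes were detected in female leukemic replicate 1 (17891) than elsewhere (19521 to 21247). That library also had the highest sums of 6 B and plasma cell genes (10301 CPM) and of 9 T and NK cell genes (2119 CPM). Its level of Ptprc, the gene of CD45, was the lowest of all libraries (259 CPM). Male non-leukemic replicate 3 had the highest level of all 12 libraries for 7 of the 9 genes. The sorted antigen gene Adgre1 (F4/80) was at 28.4 to 60.6 CPM in leukemic libraries and 75.9 to 258 CPM in non-leukemic libraries, and Ptprc (CD45) at 259 to 811 and 305 to 425 CPM. The antigens sorted against were still read, Ly6g at 4.76 to 24.2 CPM in leukemic and 31.1 to 77.9 CPM in non-leukemic libraries and Ly6c2 at 121 to 410 and 173 to 450 CPM.

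In leukemic libraries C3 and C1qa fell and Cfb rose (edgeR quasi-likelihood test with Benjamini-Hochberg adjustment over 15758 genes, adjusted p under 0.05), while the other 6 genes did not pass. That is 1 gene higher and 2 lower of 9, where 8.71% of all genes tested were higher, 9.2% were lower and 17.9% differed in either direction. All 9 passed the filter on low counts, Cfb only through its leukemic libraries. The log2 fold change was negative for 8 of the 9, with a median of -1.01 over the 9 against -0.01 over all genes tested. Lower counts of these genes in sorted bulk RNA can come from fewer cells of a type or from less RNA per cell, and these cannot be told apart. Markers of macrophages moved with them: 5 of 9 listed macrophage genes fell and none rose, with a summed level of 2146 to 3542 CPM in leukemic and 4585 to 13448 CPM in non-leukemic libraries. Most of that sum was Lyz2, which neutrophils also express. Without it the sum was 334 to 709 CPM in leukemic and 770 to 2805 CPM in non-leukemic libraries, again without overlap. Of 8 markers of marrow resident macrophages 7 fell, from a list summing to 150 to 315 CPM in leukemic and 654 to 1291 CPM in non-leukemic libraries. The part of these markers in the complement values was not tested.

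**Figure D1:**
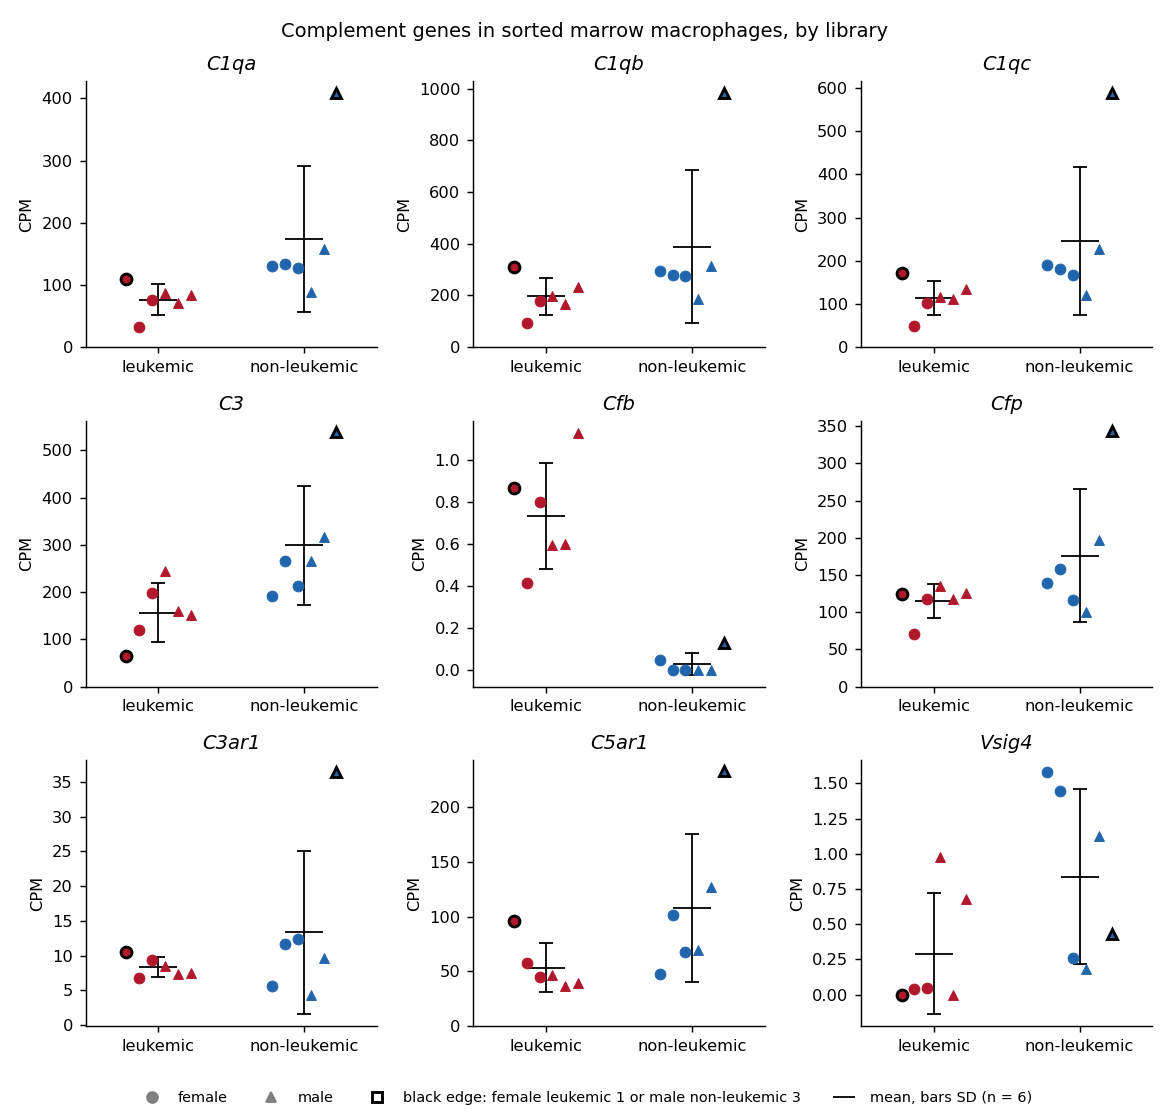
Levels of the 9 complement genes in CPM (y axis, linear), with leukemic libraries left of non-leukemic libraries in each panel, circles for females and triangles for males, and the mean with SD bars (n = 6 each). Male non-leukemic replicate 3, with a black edge, is the highest point in 7 panels, and Cfb alone has every leukemic library above every non-leukemic library.

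The plot of levels by library shows how far the spread in the non-leukemic group rests on that replicate. Per kilobase of exon, an order that compares genes with each other, C1qb was the most abundant of the 9 in both conditions, with a mean of 181 CPM per kb in leukemic and 357 CPM per kb in non-leukemic libraries. C1qa followed at 73.6 and 168 CPM per kb, then C1qc at 59.1 and 127 and Cfp at 66.3 and 101, C3 at 30.4 and 58.2 and C5ar1 at 20.8 and 41.8. C3ar1 (1.93 and 3.09), Vsig4 (0.196 and 0.564) and Cfb (0.260 and 0.0104) were far below these. Neighbours in this order, such as C1qc and Cfp, lay within the spread between libraries, and the lengths are exon unions of the GRCm38 annotation, so the order is approximate.

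C1qa, C1qb and C1qc encode the A, B and C chains that are assembled together into the C1q molecule. C1qa had 32.9, 79.3 and 110 CPM (lowest, median and highest) in leukemic libraries, against 88.9, 132 and 409 CPM in non-leukemic libraries. Female leukemic replicate 2 was the lowest and female leukemic replicate 1 the highest of the leukemic libraries, and the groups overlapped only through that highest leukemic library and male non-leukemic replicate 1. The mean was 76.5 ± 25.4 CPM in leukemic and 174 ± 117 CPM in non-leukemic libraries (SD, n = 6 each), and the log2 fold change was -1.21 (SE 0.39, adjusted p = 0.0459). C1qb had 94.7, 187 and 311 CPM in leukemic and 186, 286 and 985 CPM in non-leukemic libraries, and C1qc had 49.5, 114 and 171 CPM in leukemic and 121, 185 and 589 CPM in non-leukemic libraries. Both chains overlapped between conditions and did not pass, with log2 fold changes of -0.997 ± 0.42 for C1qb (adjusted p = 0.127) and -1.12 ± 0.40 for C1qc (adjusted p = 0.0708).

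The C1q values turned on the 2 libraries that stood apart, replicate 1 of the female leukemic and replicate 3 of the male non-leukemic group. C1qa passed when female leukemic replicate 1 (-1.48, adjusted p = 0.0110) or male non-leukemic replicate 1 (adjusted p = 0.0355) was left out, and missed the threshold without any other single library, with adjusted p between 0.0571 and 0.118. Without male non-leukemic replicate 3 the log2 fold changes were -0.76 for C1qa (adjusted p = 0.0687), -0.47 for C1qb and -0.66 for C1qc. Without female leukemic replicate 1, C1qb (-1.32, adjusted p = 0.0245) and C1qc (-1.43, adjusted p = 0.0131) also passed. With both libraries left out all 3 chains passed and were lower, with log2 fold changes of -0.9998 for C1qa, -0.75 for C1qb and -0.94 for C1qc.

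**Figure D2:**
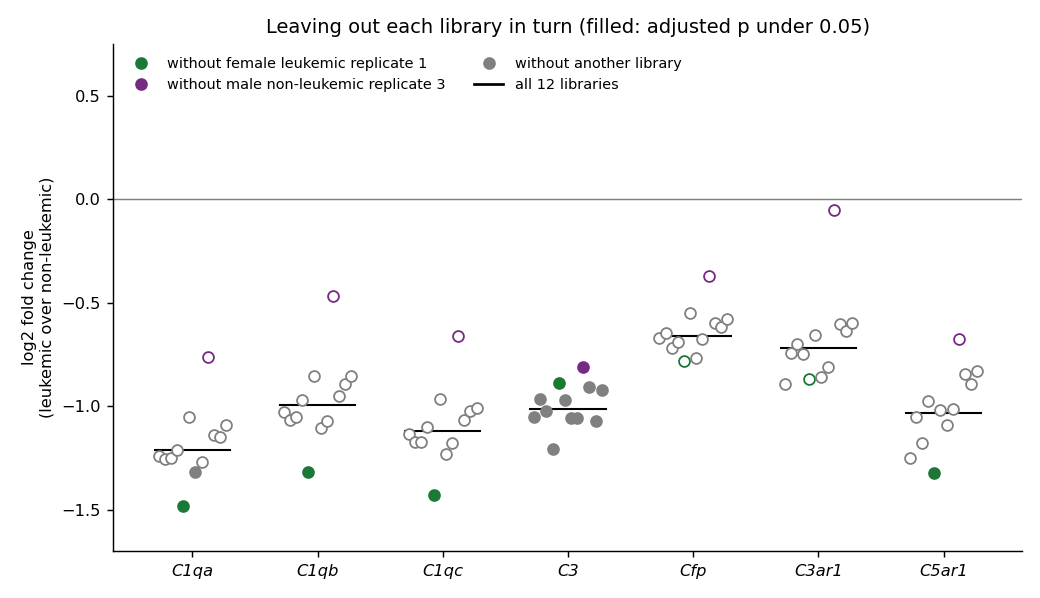
Log2 fold change, leukemic over non-leukemic, of 7 complement genes with each of the 12 libraries left out in turn (points, filled where the adjusted p was under 0.05) and with all libraries (black line). C3 stays filled throughout, and leaving out male non-leukemic replicate 3 brings every gene nearest to 0.

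In the plot of single libraries left out, the points without male non-leukemic replicate 3 lie highest for each of the 7 genes, and those without female leukemic replicate 1 lie lowest for all but C3 and C3ar1. The 3 chains varied together. Over the 12 libraries, deviations from the condition mean of each chain correlated with the mean of the 3 chains at r = 0.995 to 0.998, a description of genes that are part of that mean and share each library's depth and macrophage content. Per kilobase, C1qb made up 57.6% ± 2.18 of the C1q signal in leukemic and 54.2% ± 1.57 in non-leukemic libraries, C1qa 23.5% ± 1.73 and 26.2% ± 1.02, and C1qc 18.8% ± 0.956 and 19.7% ± 0.813 (SD, n = 6 each). The ranges of all 3 shares overlapped between conditions.

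The C1q genes are neighbours on chromosome 4, in the order C1qb, C1qc and C1qa. Their promoters are shown because the chains varied together across libraries; windows of 300 bases (250 before to 50 after the gene start, 5′ to 3′ on the minus strand) were taken from RefSeq on GRCm38.p6, for C1qb at chr4:136886151-136886450 and for C1qc at chr4:136892865-136893164. Capitals mark GAGGAA or its reverse complement TTCCTC, a core bound by PU.1, a transcription factor of myeloid cells.
C1qb: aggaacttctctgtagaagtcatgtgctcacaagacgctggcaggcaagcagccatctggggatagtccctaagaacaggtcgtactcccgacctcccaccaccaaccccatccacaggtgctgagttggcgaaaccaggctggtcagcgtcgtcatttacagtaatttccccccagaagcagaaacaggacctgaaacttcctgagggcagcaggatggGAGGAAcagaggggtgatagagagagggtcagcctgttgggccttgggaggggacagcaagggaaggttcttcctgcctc
C1qc: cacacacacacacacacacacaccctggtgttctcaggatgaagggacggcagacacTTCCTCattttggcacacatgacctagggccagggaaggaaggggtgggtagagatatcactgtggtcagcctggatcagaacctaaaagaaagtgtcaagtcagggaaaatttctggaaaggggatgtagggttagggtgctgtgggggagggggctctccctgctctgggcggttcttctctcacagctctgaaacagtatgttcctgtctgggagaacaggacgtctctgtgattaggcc
GAGGAA began 30 bases before the start of C1qb and, on the opposite strand, 193 bases before that of C1qc. Of the 9 complement genes 7 had such a window, all but C1qa and Cfb. GAGGAA stood on either strand in 4 of the 7 (C1qb, C1qc, Cfp and Vsig4), where 28.3% of all 32851 promoter windows held it. Vsig4, whose r with the C1q mean was only 0.124, held 2 matches, while C3ar1 (r = 0.801) held none. These are matches of letters, not mapped sites.

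The genes whose deviations were most like the C1q mean, among 7982 ranked over 12 libraries, were Cxcl16 (r = 0.974), a membrane chemokine and scavenger receptor, Ms4a7 (0.973), a membrane protein of macrophages, Tmem106a (0.959), Ctss (0.957) and Lgmn (0.956), the last 2 encoding lysosomal proteases. Without male non-leukemic replicate 3 their r over 11 libraries was 0.940, 0.942, 0.906, 0.904 and 0.898 in the same order. Within complement, Cfp (0.934, and 0.851 without that replicate) lay nearest to C1q, followed by Cfb (0.834 and 0.661), while C3 (0.319, and -0.15 without that replicate) and Vsig4 (0.124 and 0.326) lay far from it. C3ar1 (0.801 and 0.503) and C5ar1 (0.629 and 0.253) also had lower r without it. The minimum mean log2 CPM of 4 set for the ranked genes was not applied to the 9 complement genes. Cfb and Vsig4 lay far below that minimum, and only 2 of the 6 non-leukemic libraries had counts of Cfb. Their r therefore rests on few counts and their place beside the other genes is uncertain.

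C3 is the component on which all pathways converge. It had 64.2, 156 and 245 CPM (lowest, median and highest) in leukemic libraries, against 192, 267 and 539 CPM in non-leukemic libraries. Female leukemic replicate 1 was the lowest library and male non-leukemic replicate 3 the highest, and the groups overlapped in the range between female non-leukemic replicate 1 and male leukemic replicate 1. The mean was 156 ± 62.5 CPM in leukemic and 299 ± 126 CPM in non-leukemic libraries (SD, n = 6 each), and C3 fell, with a fitted log2 fold change of -1.01 (SE 0.26, adjusted p = 0.0161). It passed with each single library left out, at log2 fold changes of -1.21 to -0.81 and adjusted p of 0.00527 to 0.0499, and with replicate 1 of the female leukemic and replicate 3 of the male non-leukemic group both left out, at -0.64. It did not pass against a minimum change of 1.5-fold (adjusted p = 0.181). Of 4 hepatocyte genes, Alb, Ttr and Serpina1a had no count in any library, and the fourth, Apoa2, brought the list's sum to 0.312 to 1.599 CPM in leukemic and 0 to 0.813 CPM in non-leukemic libraries. Of 11 neutrophil markers 6 fell and none rose, and the list summed to 12093 to 25663 CPM in leukemic and 27342 to 62817 CPM in non-leukemic libraries, and its part in the C3 value was not tested.

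The C3 promoter, chr17:57228087-57228386 on the minus strand of GRCm38.p6 (RefSeq), is shown beside those of C1q because the likeness of C3 to the C1q chains across libraries was low. Capitals mark TTGCNNAA, letters of a C/EBP element.
C3: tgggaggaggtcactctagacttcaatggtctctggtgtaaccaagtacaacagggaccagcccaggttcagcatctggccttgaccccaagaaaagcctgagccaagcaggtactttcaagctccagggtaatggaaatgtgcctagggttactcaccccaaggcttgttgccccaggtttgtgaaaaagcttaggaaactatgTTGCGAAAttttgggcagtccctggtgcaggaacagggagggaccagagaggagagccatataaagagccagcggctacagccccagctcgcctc
The match began 45 bases before the gene start. C3 was the only one of the 7 windows with it, against 10.8% of all windows, and its window held no GAGGAA. The letters TGANTCA of an AP-1 element stood in 1 of the 7 windows, that of C3ar1, against 7.81% of all windows, and an interferon stimulated response element stood in 0 of 7, against 3.44%.

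Factor B, the serine protease of the alternative pathway convertase, was the 1 complement gene that rose. Cfb had 26, 11 and 18 counts in female leukemic replicates 1, 2 and 3 and 17, 16 and 30 in the male ones, against 1, 0 and 0 in female non-leukemic and 0, 0 and 3 in male non-leukemic replicates. Every leukemic library lay above every non-leukemic library, which held for 5.05% of all genes tested in that direction and for 3.63% in the other, where no complement gene of the 9 did so. The level was 0.412, 0.701 and 1.13 CPM (lowest, median and highest) in leukemic libraries, with 4 of the 6 non-leukemic libraries at 0. Summed over libraries there were 118 leukemic and 4 non-leukemic counts, a ratio of 23.8 in counts per library size with an exact 95% interval of 9.05 to 88.8 that covers counting error only. Of the 4, 3 were in male non-leukemic replicate 3, and without it the ratio was 78.1 (13.7 to 3110). The fitted log2 fold change of 4.34 ± 0.92 (SE, adjusted p = 0.00581) depends on the prior count at such low counts. Cfb passed in all 20 alternatives that tested it, from 4.10 to 5.68 on the log2 scale, and was removed by a filter of 5 CPM. Those alternatives refit the same low counts, and Cfb passed the main low-count filter only through its leukemic libraries. Its neighbours on chromosome 17 are Nelfe and C2, and without strand information reads of overlapping genes could not be separated. A list of 9 T and NK cell genes, all of which rose, summed to 1015 to 2119 CPM in leukemic and 253 to 510 CPM in non-leukemic libraries. Of 7 eosinophil, basophil and mast cell genes 4 rose and 0 fell, with sums of 5033 to 16873 and 3208 to 5996 CPM. Of 5 leukemic progenitor genes 3 rose and 0 fell, with sums of 593 to 832 and 346 to 499 CPM. The part of these lists in the Cfb value was not tested. C2, which lies beside it and serves the classical pathway in the same role, was at 0.262 to 1.10 CPM in leukemic and 0.272 to 0.860 CPM in non-leukemic libraries, with a log2 fold change of 0.04.

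Properdin, the stabiliser of that convertase, is encoded by Cfp on the X chromosome. It had 70.2, 121 and 135 CPM in leukemic libraries, against 100, 149 and 344 CPM in non-leukemic libraries. The groups overlapped between 100 and 135 CPM, where female non-leukemic replicate 3 (117 CPM) and male non-leukemic replicate 1 (100 CPM) lay. Female non-leukemic replicates 1 (139 CPM) and 2 (158 CPM) and male non-leukemic replicates 2 (198 CPM) and 3 lay above every leukemic library. Male non-leukemic replicate 3 was far above and female leukemic replicate 2 far below the rest. The log2 fold change of -0.66 ± 0.28 did not pass (adjusted p = 0.122) and was -0.37 without male non-leukemic replicate 3.

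C5ar1 encodes the receptor through which C5a draws in and activates myeloid cells. It had 36.5, 45.8 and 95.9 CPM (lowest, median and highest) in leukemic libraries, against 47.5, 85.2 and 233 CPM in non-leukemic libraries. All 3 male leukemic libraries and female leukemic replicate 3 lay below every non-leukemic library, while female leukemic replicate 1 lay above 3 of them. The mean was 53.5 ± 22.01 CPM in leukemic and 108 ± 67.4 CPM in non-leukemic libraries (SD, n = 6 each), and the log2 fold change of -1.04 ± 0.43 did not pass (adjusted p = 0.119). Without female leukemic replicate 1 it was -1.32 (adjusted p = 0.0216), without male non-leukemic replicate 3 it was -0.67, and with both left out it was -0.94 (adjusted p = 0.0131).

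C3ar1 encodes the receptor of C3a. It had 6.70, 8.004 and 10.6 CPM in leukemic libraries, against 4.26, 10.6 and 36.4 CPM in non-leukemic libraries. The leukemic libraries lay close together within the non-leukemic range, and male non-leukemic replicate 3 was the highest by a wide margin. The log2 fold change of -0.72 ± 0.47 did not pass (adjusted p = 0.336) and was -0.05 without that replicate. Per kilobase, the C5ar1 level was 10.7 ± 3.26 times that of C3ar1 in leukemic and 16.3 ± 6.99 times in non-leukemic libraries (SD, n = 6 each), with overlapping ranges.

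Vsig4 encodes a receptor of resident macrophages, best known from Kupffer cells, that binds C3b-coated particles. Its counts were 0, 1 and 1 in female leukemic and 28, 0 and 18 in male leukemic replicates 1, 2 and 3, against 33, 29 and 7 in female non-leukemic and 4, 19 and 10 in male non-leukemic replicates. The leukemic libraries fell into 4 with at most 1 count and 2 male libraries at 0.980 and 0.679 CPM, inside the non-leukemic range of 0.181 to 1.58 CPM. The sums of 48 leukemic and 102 non-leukemic counts gave a ratio of 0.379 (exact 95% interval 0.263 to 0.540, counting error only), or 0.192 without male leukemic replicate 1, but the spread between libraries was wider and the log2 fold change of -2.28 ± 1.30 did not pass (adjusted p = 0.268).

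Set against Csf1r, the macrophage growth factor receptor gene, in the same library, most of the differences were small beside the spread. Csf1r was at 263 ± 68.4 CPM in leukemic and 506 ± 307 CPM in non-leukemic libraries (SD, n = 6 each) and also fell (log2 fold change -1.03, adjusted p = 0.0268). The ratio of C1qb to Csf1r was 0.777 ± 0.367 in leukemic and 0.753 ± 0.195 in non-leukemic libraries, that of C1qa 0.298 ± 0.120 and 0.346 ± 0.0811, and that of C1qc 0.446 ± 0.193 and 0.485 ± 0.129. For C3 the ratio was 0.594 ± 0.187 in leukemic and 0.637 ± 0.140 in non-leukemic libraries. Cfp stood at 0.447 ± 0.0828 and 0.368 ± 0.0996, C5ar1 at 0.231 ± 0.146 and 0.213 ± 0.0582, and C3ar1 at 0.0337 ± 0.0113 and 0.0242 ± 0.00840. All of these ratios overlapped between conditions, and that of Cfb alone did not, at 0.00181 to 0.00419 in leukemic and 0 to 0.000165 in non-leukemic libraries. A ratio within a library shows whether 2 genes changed unequally and not which of them changed.

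**Figure D3:**
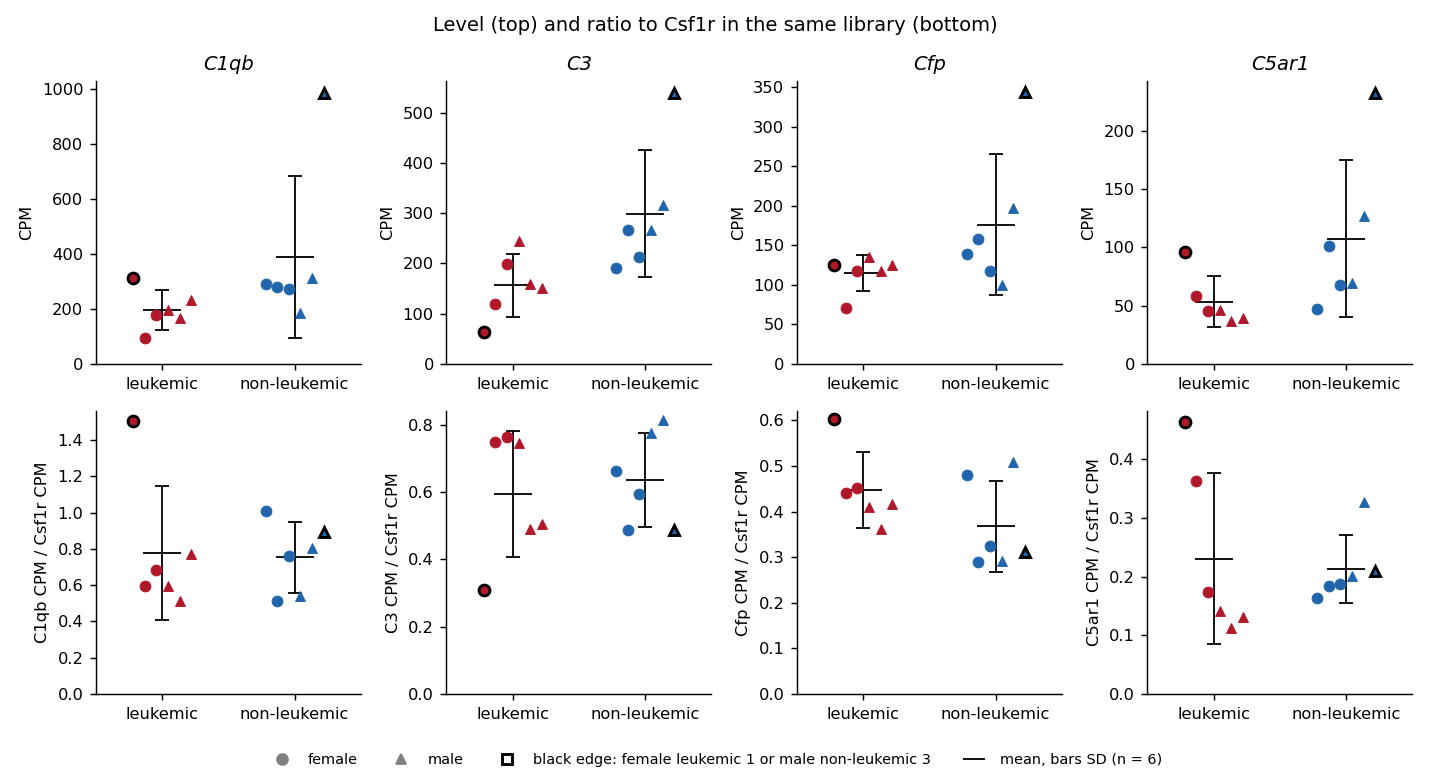
CPM (top row) and the ratio of CPM to that of Csf1r in the same library (bottom row) for C1qb, C3, Cfp and C5ar1, leukemic left of non-leukemic, with circles for females, triangles for males and the mean with SD bars (n = 6 each). Male non-leukemic replicate 3 is the highest point of each top panel and is no longer the highest in any bottom panel, where female leukemic replicate 1 is the highest point for C1qb, Cfp and C5ar1 and the lowest for C3.

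The plot of levels and ratios shows that after dividing by Csf1r male non-leukemic replicate 3 lay within its group for C1qb, at 0.890, and at the low end of it for C3, at 0.488. The ratio set female leukemic replicate 1 apart, at 1.51 for C1qb and 0.310 for C3.

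Leukemia was also compared within each sex. In females 1 of the 9 genes was higher and 0 lower, where 3.84% of all genes tested were higher, 4.59% lower and 8.43% differed. The gene was Cfb, at 5.14 ± 1.41 on the log2 scale (adjusted p = 0.0437), a call that was lost without each of 10 of the 12 libraries, all but male non-leukemic replicates 1 and 3, at adjusted p up to 0.151. C1qa (-0.78 ± 0.53), C1qb (-0.48 ± 0.57), C1qc (-0.67 ± 0.54), C3 (-0.84 ± 0.37) and C5ar1 (-0.08 ± 0.45) did not pass in females. Vsig4 stood at -5.17 ± 1.57 (adjusted p = 0.0652), with 2 counts in all over the 3 female leukemic libraries. In females C1qa ran from 32.9 to 110 CPM in leukemic and from 127 to 133 CPM in non-leukemic libraries, without overlap. Vsig4 (0 to 0.0446 and 0.263 to 1.58 CPM) and Cfb (0.412 to 0.866 and 0 to 0.0478 CPM) did not overlap either.

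In males 1 of the 9 genes was lower and 0 higher, where 4.04% of all genes tested were lower, 3.34% higher and 7.37% differed. C5ar1 had 46.4, 36.5 and 39.3 CPM in male leukemic replicates 1, 2 and 3, against 69.4, 127 and 233 CPM in the male non-leukemic ones. All 3 leukemic males lay below all 3 non-leukemic males, and the log2 fold change was -1.99 ± 0.46 (SE, adjusted p = 0.0230). The males also separated for C1qa (leukemic 70.4 to 87.0, non-leukemic 88.9 to 409 CPM) and C3 (152 to 245 and 267 to 539 CPM). For Cfb all 3 leukemic males lay above the non-leukemic ones. The share of all genes that separated was computed within neither sex. These separations in females and males are therefore description only and no result about the complement genes. The C5ar1 call was lost without male non-leukemic replicate 3 (-1.38, adjusted p = 0.0634) and without male leukemic replicate 1 (adjusted p = 0.0737), 2 (0.106) or 3 (0.104). C1qa (-1.64 ± 0.54), C1qb (-1.51 ± 0.58), C1qc (-1.57 ± 0.55), C3 (-1.19 ± 0.37) and Cfb (3.75 ± 1.26) did not pass in males, with adjusted p between 0.0797 and 0.147. Without male non-leukemic replicate 3 the C1q chains stood at -0.73, -0.44 and -0.63 in males, and Cfb, whose remaining male non-leukemic libraries had 0 counts, passed (adjusted p = 0.0380).

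The difference between the sexes was tested as an interaction. It passed for 0 of the 9 genes and for 0 of 15758 genes in all (0%) with edgeR, where 925 genes had an unadjusted p under 0.05, while DESeq2 called 23 genes and none of the 9. The largest differences among the 9 were those of C5ar1, at 1.91 ± 0.64 (female minus male effect, log2, unadjusted p = 0.0112, adjusted p = 0.819), and Vsig4, at -4.98 ± 1.97 (unadjusted p = 0.0264, adjusted p = 0.819). A difference of these effects between sexes was thus not shown.

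**Figure D4:**
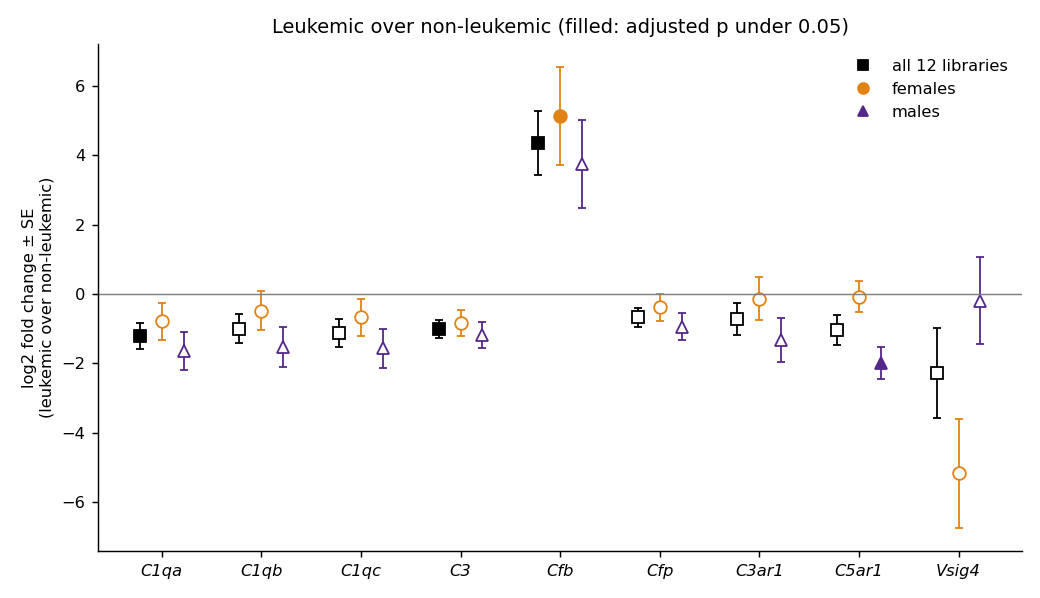
Log2 fold change, leukemic over non-leukemic, with SE bars for the 9 complement genes over all 12 libraries (squares), in females (circles) and in males (triangles), filled where the adjusted p was under 0.05. Cfb lies above 0 in all 3 fits, and the filled points below 0 are C1qa and C3 over all libraries and C5ar1 in males.

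In the plot of fold changes by sex, the SE bars of the female and male fits overlap for 7 genes and are apart for C5ar1 and Vsig4.

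The other genes of the cascade were taken from a list of 47 by role, of which 9 had no count, 14 were counted too rarely to be tested and 24 were tested. Of the 24, 4 rose and 6 fell, where 8.71% and 9.2% of all genes tested did so. Their median log2 fold change was 0.01, also with C7 at its lower bound, against -0.01 over all genes tested. Among those with non-overlapping groups 3 were higher and 4 lower in leukemic libraries, where 5.05% and 3.63% of all genes tested did so.

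At the start of the lectin pathway, the ficolins that recognise sugar patterns fell. Fcna had 7.16, 15.6 and 28.0 CPM in leukemic and 60.3, 69.7 and 183 CPM in non-leukemic libraries (log2 fold change -2.73, SE 0.27, adjusted p = 3.16e-05), and its groups did not overlap. Fcnb, made by neutrophils and their precursors in mice, had 73.7, 120 and 159 CPM in leukemic and 234, 350 and 631 CPM in non-leukemic libraries, a change of -1.71 ± 0.29 (adjusted p = 0.00136), also without overlap. The neutrophil markers given beside C3 were lower in the same libraries, with sums that did not overlap either, and their part in the Fcnb value was not tested. C4b, which with C2 forms the classical convertase, rose (log2 fold change 2.67, SE 0.77, adjusted p = 0.0295), with 3.10 to 10.7 CPM in leukemic and 0 to 2.86 CPM in non-leukemic libraries. That call was lost without any of 5 single libraries, at adjusted p up to 0.0684, and its reads are hard to assign between C4b and the near-identical C4a. The libraries whose removal ended it were female non-leukemic replicate 2, male non-leukemic replicate 1, female leukemic replicate 3 and male leukemic replicates 2 and 3. C1ra, a protease that C1q activates, had a change of 0.65 and did not pass.

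Of the 7 listed genes of the terminal pathway, 2 were counted often enough to be tested, C7 and C8g. Hc, which encodes C5, had 10 counts over the leukemic and 3 over the non-leukemic libraries, and C8a and C8b had none. C7 had 0 counts in every non-leukemic library and 308 in the leukemic libraries, of which 190 were in male leukemic replicate 1 and 0 in female leukemic replicate 2. Against a floor of 3 counts over the non-leukemic group it was at least 82.8-fold higher (edgeR adjusted p = 0.0145), or at least 38.6-fold without male leukemic replicate 1, and it passed the filter only through its leukemic libraries. C8g, with 3.48 to 5.65 CPM in leukemic and 2.20 to 3.76 CPM in non-leukemic libraries, did not pass (0.57, adjusted p = 0.166).

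Among regulators, the membrane inhibitors of the attack complex fell. Cd59a had 4.34, 6.05 and 7.86 CPM in leukemic and 10.6, 30.1 and 38.4 CPM in non-leukemic libraries without overlap (log2 fold change -2.24, SE 0.24, adjusted p = 5.23e-05). Its paralog Cd59b changed by -2.58 ± 0.45 (adjusted p = 0.00167), at 0.401 to 1.17 CPM in leukemic and 1.07 to 6.51 CPM in non-leukemic libraries, and reads of the pair may be split. Cd59a is also expressed by red cells, and the erythroid list, all 7 members of which fell, summed to 433 to 979 CPM in leukemic and 11005 to 14527 CPM in non-leukemic libraries. Its part in the Cd59 values was not tested. The convertase inhibitors Cd55 (0.00) and Cr1l (-0.08) and the fluid-phase regulator Serping1 (0.97) did not pass. Clu, a fluid-phase inhibitor of the attack complex, rose by 1.12 ± 0.29 (adjusted p = 0.0170), with 7.23 to 12.7 CPM in leukemic and 1.99 to 6.56 CPM in non-leukemic libraries and no overlap.

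Of the other receptors, Itgam, the alpha chain of complement receptor 3, fell (log2 fold change -1.03, SE 0.24, adjusted p = 0.00949), with 7.76, 24.0 and 28.6 CPM in leukemic and 26.5, 41.1 and 57.5 CPM in non-leukemic libraries. The groups overlapped at one edge. Itgax, the alpha chain of receptor 4, had a change of 0.70 (adjusted p = 0.190) and their shared beta chain Itgb2 one of -0.09. Lrp1, an endocytic receptor reported to take up C1q-bound material, changed by -1.10 ± 0.28 (adjusted p = 0.0150), at 24.95 to 33.0 CPM in leukemic and 33.3 to 126 CPM in non-leukemic libraries, without overlap. Cd93, once named as a C1q receptor and expressed by progenitor, endothelial and myeloid cells, rose by 0.72 ± 0.15 (adjusted p = 0.00475), at 47.7 to 65.2 CPM in leukemic and 26.5 to 46.9 CPM in non-leukemic libraries, also without overlap. A list of 5 genes of leukemic progenitors, 3 of which rose, summed to 593 to 832 CPM in leukemic and 346 to 499 CPM in non-leukemic libraries, and its part in the Cd93 value was not tested. C5ar2, the second C5a receptor and the neighbour of C5ar1 on chromosome 7, had 1.13 to 7.15 CPM in leukemic and 1.77 to 4.26 CPM in non-leukemic libraries and a change of 0.52 (adjusted p = 0.370).

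**Figure D5:**
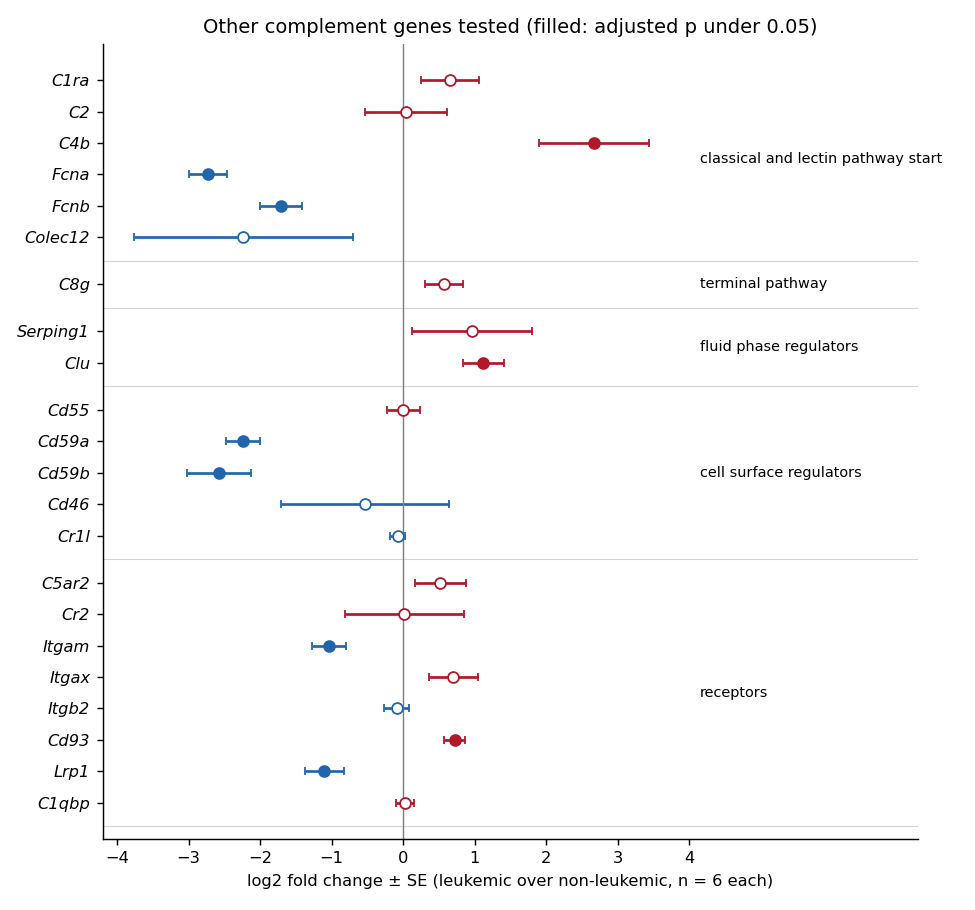
Log2 fold change, leukemic over non-leukemic, with SE bars for 22 of the 24 other complement genes tested, grouped by role (n = 6 libraries each), filled where the adjusted p was under 0.05. C7, at 0 counts in all non-leukemic libraries, and 1 gene that is not reported here are not drawn; filled points lie on both sides of 0.

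The plot of the other genes by role places the falls among ficolins, Cd59 paralogs, Itgam and Lrp1, and the rises in C4b, Clu and Cd93.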

How the data were processed

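Per the labels' protocols, 1 ng of RNA from each sort was turned into amplified full-length cDNA, which was then tagmented. The amplification kit keeps neither strand nor single molecules, so counts may include PCR copies and antisense reads. The values are raw counts per gene as deposited by the authors, with no normalization and 1 column per library. The submitters' processing notes name STAR 2.7.9a, featureCounts of Subread 2.0.1, fastp 0.23.1, DESeq2 1.28.1 and the build GRCm39, with no settings.

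The title of each library gave its sex, condition and replicate number. CPM were computed here from column totals. The complement genes and the lists were chosen with earlier results of these data known. Genes were filtered with filterByExpr over the 4 groups, which left 15758, scaled by TMM and tested two-sided in edgeR 4.0.16 (robust quasi-likelihood, R 4.3.3), with sex as a term. Effects within a sex and the interaction were contrasts of 4 group means. Benjamini-Hochberg adjustment ran over all genes tested, with a threshold of 0.05, and the SE was the log2 fold change divided by the square root of F. The script was tested on simulated counts. Likeness to C1q used log2 CPM with a prior count of 2 and genes with a mean of at least 4. Named genes were all 9 complement genes, the genes of the complement list that passed, others needed to describe a role, the 5 most like C1q, and gate genes. Lyz2 and Apoa2 were named after their values were seen. Some list genes are counted but not reported here by name. Replicates differed beyond sampling noise, with at least 22.6 in chi-square per degree of freedom for every pair of a group.

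Alternative settings were size factors by RLE, the Wald test of DESeq2 1.42.0, voom of limma 3.58.1, omission of the low-count filter, a stricter filter (5 CPM in at least 3 libraries), a test against 1.5-fold, a block for replicate number, fits restricted to 1 sex, and omission of single libraries or of both that stood apart. Sums of counts without the library holding most of them were added after seeing the data.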

Additional observations from a re-analysis of the deposited data

Results flagged for a closer look

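In 37 groups of 6 libraries, the gap between the highest or lowest library and its nearest neighbour, divided by the range of the group, was checked against Dixon's 95% critical value, which chance alone passes in about 1 in 20 groups. It was passed 12 times, and 9 of these were male non-leukemic replicate 3 as the highest non-leukemic library. The ratios for that library were 0.786 for C1qa, 0.841 for C1qb, 0.775 for C1qc, 0.640 for C3, 0.629 for Cfb (3 counts) and 0.747 for C3ar1, and 0.782 for Fcna, 0.672 for Cd93 and 0.732 for Lrp1. Among leukemic libraries, female leukemic replicate 2 was far below the others for Cfp (0.733), female leukemic replicate 1 far above them for C5ar1 (0.640) and male leukemic replicate 1 far above them for C7 (0.678). These genes share 12 libraries, so the ratios are not independent of each other.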

How the results depend on the processing

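The number of the 9 complement genes that were lower, 2, was 1 with RLE size factors, 1 without the low-count filter, 0 against a minimum change of 1.5-fold, 4 with DESeq2 and 5 with both libraries that stood apart left out, and ranged from 1 to 5 with single libraries left out; the count of 1 higher became 0 with the filter of 5 CPM, which removes Cfb, and was 1 to 1 with single libraries left out. Over all genes tested, 2822 of 15758 were called in either direction in the main fit. That number was 2807 with RLE size factors, 3717 with DESeq2 and 978 against 1.5-fold. It was 2433 of 29213 without the low-count filter, 2614 of 10938 with 5 CPM and 4717 of 16300 with both libraries left out. With single libraries left out it ranged from 2108 of 16664 to 3910 of 16240. Of the other complement genes, 4 were higher and 1 against a minimum change of 1.5-fold (3 to 5 with single libraries left out, and 6 with both out), and 6 were lower and 4 against that minimum (6 to 6). In females the count higher of 1 became 0 without the filter, with 5 CPM, against 1.5-fold and in the fit of only those libraries (0 to 1 with single libraries out), and the count lower of 0 became 1 with DESeq2 and 3 with both libraries out (0 to 1). In males the count higher of 0 became 1 with DESeq2 and 1 with both out (0 to 1), and the count lower of 1 became 4 with DESeq2 and 0 against 1.5-fold (0 to 3). Among all genes tested in females, 1328 were called in the main fit, 2366 with DESeq2, 477 against 1.5-fold and 2368 with both out. Calls in females were 1157 without the filter, 1487 with 5 CPM and 942 of 14430 in the fit of only those libraries. Among all genes tested in males, 1162 were called in the main fit, 2053 with DESeq2, 495 against 1.5-fold and 2728 with both out. Signs turned within the sexes and in the interactions: with single libraries out, C3ar1 ranged from -0.38 to 0.11 and C5ar1 from -0.53 to 0.25 in females, and C3ar1 from -1.76 to 0.0603 (0.0911 with both out) and Vsig4 from -0.87 to 0.65 in males. Interactions ranged from -0.0688 to 1.26 for C1qa (-0.61 with both out), -0.0517 to 1.46 for C1qb (-0.68), -0.0503 to 1.31 for C1qc (-0.67), -0.0793 to 0.64 for C3, -2.03 to 3.39 for Cfb (-2.29), -0.0387 to 0.94 for Cfp (-0.28) and -0.20 to 1.67 for C3ar1 (-0.44). Of 947 alternative values for single genes, 856 kept direction and side of the threshold, 45 lost the call, 22 gained it and 24 changed sign; the cause was not tested.

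With the replicate number as a block the counts were 1 lower over all libraries, 0 higher in females and 0 lower in males. In those fits 2509, 1057 and 932 of all 15758 genes tested were called in either direction, in the same order. Pairing by replicate number was not seen, as 0 of 18 same-number pairs had a correlation of deviations over 0.1 (-0.11 to 0.0790). Yet 6 of 12 libraries correlated best with their own number. With 3 libraries per group this check cannot exclude pairing.

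Counts of Cfb and Vsig4 were near the floor of 3 counts in many libraries, so their sizes are imprecise. Male non-leukemic replicate 3 held the highest level of most complement genes and of the macrophage lists, which with 3 libraries per group limits any statement within males.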
